A study of Mus musculus with 9 samples.

Results

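The genes described here are the mouse genes with a symbol of the form Zfp and a number, the naming series for zinc finger proteins, with the pluripotency marker Zfp42 left out. The deposited table holds 372 such rows among 37975, and 215 of them reached 5 FPKM in at least 1 of 9 libraries. FPKM counts sequenced fragments per length of transcript, scaled to the size of each library. These 215 genes are the members. They were selected on their measured FPKM, so the number that reached 5 FPKM in each library is a description and is not tested. Just under the threshold were Zfp58 at 4.85 FPKM, Zfp597 at 4.88 FPKM and Zfp788 at 4.92 FPKM, each in its highest library, and just over it were Zfp94, Zfp606 and Zfp120, each at 5.02 FPKM. Of the other rows, 120 peaked between 1 and 5 FPKM, 36 stayed under 1 FPKM and 1 had no usable value.

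Most Zfp genes encode proteins with tandem C2H2 zinc fingers, short loops held by a zinc ion that each contact a few bases of DNA. Many of them also carry a KRAB domain, which recruits the corepressor TRIM28 (KAP1) and through it histone methyltransferases, heterochromatin proteins and DNA methylation to the bound site. KRAB zinc finger genes multiply by duplication, lie in chromosomal clusters and are best known for silencing transposable elements and for keeping imprinted regions methylated. Other genes with Zfp symbols have different roles, among them mRNA decay (the CCCH proteins of the Zfp36 family), ubiquitin ligation, splicing and spindle attachment.

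The libraries come from mouse cell lines. The XEN-type lines are Sox17-XEN, derived from an embryonic stem cell (ESC) line that overexpresses Sox17 under doxycycline (dox) control, and wild-type XEN, the line IM8AR. XEN cells are extraembryonic endoderm stem cells, a cultured counterpart of primitive endoderm. The ES-type lines are the Sox17 overexpression line without dox (Sox17-ESC no dox) and wild-type R1 ESC. The same Sox17 line was also sampled after 7, 21, 35 and 49 h and after 6 days in 100 ng/ml dox. The day 6 description carries the word SORT without a gate, and the Sox17-XEN label joins 30 days with and 30 days without dox in an order that cannot be settled from its wording, although its description includes dox-indep. The Sox17 libraries share 1 line (4J), and the labels do not say whether that line is 1 clone. ESC grew over embryonic fibroblast feeders with LIF and serum, and XEN cells in fibroblast-conditioned medium with serum, so culture and cell type cannot be told apart. Every group has 1 library, and the comparison of XEN-type with ES-type lines uses 2 lines per class, so its spread is between lines and not between replicate cultures.

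The marker genes followed the labels of the lines. Summed over the 5 of 6 ES markers with a value in every library (Esrrb had none in the ES-type lines), the level was 10.5 FPKM in Sox17-XEN and 11.9 FPKM in wild-type XEN, against 1470 FPKM in Sox17-ESC no dox and 2040 FPKM in R1 ESC. Summed over 7 XEN markers, it was 1807 and 1626 FPKM in the same XEN-type lines, against 16.4 and 6.21 FPKM in the ES-type lines. The 15 fibroblast markers summed to 834 FPKM in Sox17-XEN and 41.1 FPKM in wild-type XEN, against 2090 FPKM in Sox17-ESC no dox and 914 FPKM in R1 ESC. In wild-type XEN only 3 of these 15 reached 1 FPKM, and at day 6 the sum was 194 FPKM. Cultures of mixed cells are measured in bulk, so fewer cells of a type and less RNA per cell cannot be told apart. Over 6670 genes at 5 FPKM or more in every library, the median log2 ratio to R1 ESC was 0.39 in Sox17-XEN, 0.46 in wild-type XEN and 0.28 at day 6, and between -0.10 and 0.05 in the other Sox17 libraries. Differences are therefore also given after rescaling each library by this median. The depth is unknown, since read counts are not used here. The deposited intervals are wide: their lower bound is 0 for 1918 of the 1919 usable member values.

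Upstream sequence is shown for 2 pairs of members that the results below return to, since each pair sits in the same chromosomal region and moved in 1 direction. Zfp534 and Zfp600 on chromosome 4 had the largest negative differences between XEN-type and ES-type lines. Zfp282 and Zfp777 belong to the chromosome 6 cluster with the largest positive median. The sequences are the 250 bases before the start of each gene in RefSeq (build GRCm38.p6), 5′ to 3′ on the strand of the gene, with CG dinucleotides in capitals. Zfp534 is at chr4:147702632-147702881, minus strand, Zfp600 at chr4:146156577-146156826, plus strand, Zfp282 at chr6:47877305-47877554, plus strand and Zfp777 at chr6:48047795-48048044, minus strand.
Zfp534: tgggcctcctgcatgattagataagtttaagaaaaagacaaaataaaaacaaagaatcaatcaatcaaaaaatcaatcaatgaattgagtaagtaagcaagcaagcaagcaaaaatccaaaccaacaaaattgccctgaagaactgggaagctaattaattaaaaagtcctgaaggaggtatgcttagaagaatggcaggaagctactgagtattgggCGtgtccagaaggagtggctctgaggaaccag
Zfp600: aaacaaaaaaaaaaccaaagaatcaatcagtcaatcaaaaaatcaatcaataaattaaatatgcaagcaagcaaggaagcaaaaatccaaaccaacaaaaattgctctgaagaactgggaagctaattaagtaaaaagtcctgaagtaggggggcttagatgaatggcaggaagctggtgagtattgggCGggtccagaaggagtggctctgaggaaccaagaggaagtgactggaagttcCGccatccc
Zfp282: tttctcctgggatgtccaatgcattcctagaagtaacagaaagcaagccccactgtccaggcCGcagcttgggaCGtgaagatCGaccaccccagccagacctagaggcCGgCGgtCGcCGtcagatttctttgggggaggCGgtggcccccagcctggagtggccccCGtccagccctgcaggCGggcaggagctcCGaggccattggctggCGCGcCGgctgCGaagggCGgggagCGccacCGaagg
Zfp777: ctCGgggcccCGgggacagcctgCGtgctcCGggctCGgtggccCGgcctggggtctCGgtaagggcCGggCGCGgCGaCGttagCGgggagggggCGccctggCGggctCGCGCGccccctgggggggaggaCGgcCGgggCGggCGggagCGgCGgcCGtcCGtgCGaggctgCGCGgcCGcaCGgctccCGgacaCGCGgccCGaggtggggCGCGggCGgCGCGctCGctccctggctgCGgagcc
The Zfp534 window holds 1 CG dinucleotide and the Zfp600 window 2, and the Zfp282 window holds 18 and the Zfp777 window 42. In a global alignment with free end gaps, Zfp534 and Zfp600 had 197 identical bases among 215 aligned. The other pair, Zfp282 and Zfp777, had 123 identical among 168 aligned. Across the pairs, the same alignment placed 59 identical among 73 aligned bases for Zfp534 and Zfp282, and 27 among 38 for Zfp600 and Zfp777. Rows as similar as Zfp534 and Zfp600 may share reads, and both loci also overlap other listed rows, so the split of their FPKM is uncertain.

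The members were present at moderate levels in every library. The median member stood at 9.90 FPKM in Sox17-XEN and 7.75 FPKM in wild-type XEN, against 6.70 FPKM in Sox17-ESC no dox and 5.14 FPKM in R1 ESC. At least 5 FPKM was reached by 177 members in Sox17-XEN and 143 in wild-type XEN, against 139 in Sox17-ESC no dox and 111 in R1 ESC. With rescaled libraries these medians were 7.55 and 5.64 FPKM in the XEN-type lines, against 6.51 and 5.14 FPKM in the ES-type lines, so wild-type XEN no longer stood above Sox17-ESC no dox. In all 9 libraries, 79 members reached 5 FPKM. The threshold was met only in XEN-type lines by 28 members, only at day 6 by 9 and only in ES-type lines by 2. For such members the level rule itself makes a difference likely. The higher level in XEN-type lines was not particular to Zfp genes. Over all rows that reached 5 FPKM in at least 1 library, the median was 17.6 FPKM in Sox17-XEN and 17.6 FPKM in wild-type XEN. It was 12.7 FPKM in Sox17-ESC no dox and 11.4 FPKM in R1 ESC. The counts at the threshold were not made over all rows.

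The highest level of any member was that of Zfp57, a KRAB protein that keeps imprinted regions methylated, at 168 FPKM in R1 ESC. It was followed by Zfp106, an RNA-binding protein, with 117 FPKM in Sox17-ESC no dox, and by Zfp207, which loads the checkpoint protein Bub3 onto kinetochores, with 98.2 FPKM in the same library. Zfp330 (67.3 FPKM at day 6), Zfp740 (63.8 FPKM in wild-type XEN), Zfp710 (53.2 FPKM at 21 h) and Zfp428 (50.8 FPKM in R1 ESC) were the other members above 50 FPKM. At the other end, 79 members peaked between 5 and 10 FPKM.

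Between XEN-type and ES-type lines, 16 members were higher and 12 were lower. The call asked for a Benjamini-Hochberg adjusted p under 0.05 in limma and a difference of at least 1 on the log2(FPKM + 1) scale, 2-sided, with all rows that reached 1 FPKM in the fit. A difference on this scale understates the change of genes with low FPKM. Over all 14925 rows fitted, 11.1% were called higher and 8.08% lower, and over the 11305 rows that met the same level rule as the members, 13.8% and 7.21%. Of the 212 members with a value, 7.55% were called higher and 5.66% lower. Their median difference was 0.50, beside 0.37 over rows of the same level rule and 0.21 over all rows fitted. Zfp191, Zfp275 and Zfp292 had no value in this comparison.

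The calls rest on having both ES-type lines. With rescaled libraries, 6 of the 16 higher members and all 12 lower members were still called and 3 others became lower, which made 6 higher and 15 lower. Without either ES-type line no row of the whole table was called, and without Sox17-XEN or without wild-type XEN the members called were 3 higher and 11 lower, or 6 higher and 8 lower. All 28 kept the sign of their difference under every alternative tried, which their selection for a difference of at least 1 made likely.

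**Figure D1:**
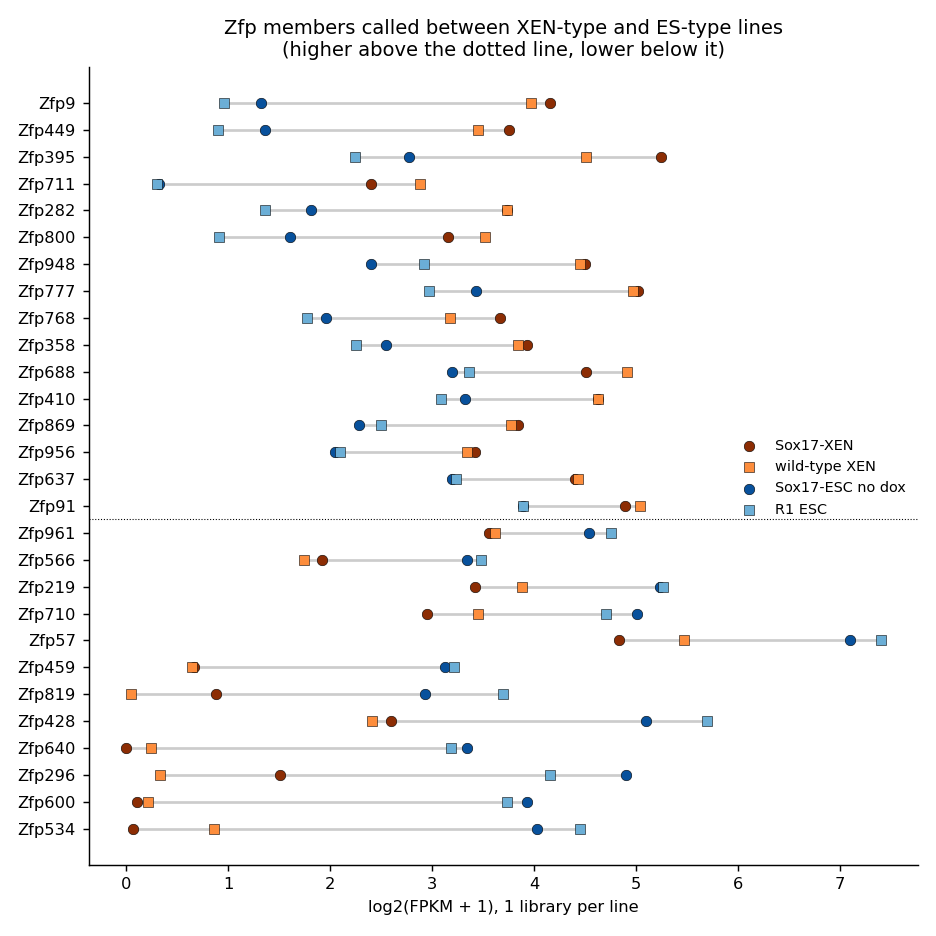
Level of the 28 called members as log2(FPKM + 1) in the 4 lines, 1 point per library, with XEN-type lines in brown and orange and ES-type lines in dark and light blue. For each member the XEN-type points lie on 1 side of the ES-type points, which the call itself makes likely. Zfp9 (2.92) has the largest positive and Zfp534 (-3.78) the largest negative difference.

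The lower members were led by genes that were close to absent in XEN-type lines. Zfp534 (ENSMUSG00000062518, chromosome 4, mm9) had 0.045 and 0.819 FPKM in Sox17-XEN and wild-type XEN, against 15.4 and 20.8 FPKM in Sox17-ESC no dox and R1 ESC, a difference of -3.78 (SE 0.43, adjusted p = 0.0184 in limma). Zfp600 (ENSMUSG00000066007), on the same chromosome, had 0.0782 and 0.157 FPKM in the same XEN-type lines, against 14.2 and 12.3 FPKM in the ES-type lines (-3.67, SE 0.28, adjusted p = 0.0171 in limma). Zfp640, on chromosome 13, was listed at 0 in Sox17-XEN and at 0.183 FPKM in wild-type XEN, against 9.14 and 8.09 FPKM in Sox17-ESC no dox and R1 ESC (-3.14). In all 3 the ES-type level was above 8 FPKM and the XEN-type level under 1 FPKM. They were named for their large differences, so a gap between the classes was likely in advance.

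Zfp296, a zinc finger protein of pluripotent cells and the early embryo, had 1.85 and 0.261 FPKM in Sox17-XEN and wild-type XEN, against 28.9 and 16.8 FPKM in Sox17-ESC no dox and R1 ESC (-3.61, SE 0.57). Zfp428 had 5.05 and 4.31 FPKM in the XEN-type lines, against 33.3 and 50.8 FPKM in the ES-type lines (-2.89, SE 0.31). Zfp819, a KRAB protein linked to the silencing of transposable elements in the mouse, had 0.843 and 0.0297 FPKM in Sox17-XEN and wild-type XEN, against 6.64 and 11.9 FPKM in Sox17-ESC no dox and R1 ESC (-2.85, SE 0.48). These fell below their ES-type levels in both pairs of lines, but only Zfp428 stayed above 4 FPKM.

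Zfp57 (ENSMUSG00000036036, chromosome 17, 37138107 to 37147580 in mm9) had 27.5 and 43.4 FPKM in Sox17-XEN and wild-type XEN, against 136 and 168 FPKM in Sox17-ESC no dox and R1 ESC. The difference was -2.10 (SE 0.30, adjusted p = 0.0242 in limma), a ratio of 0.234 in FPKM + 1. Zfp57 thus fell without becoming rare: even in Sox17-XEN it stood above the median member. The other lower members were Zfp459 (-2.52), Zfp710 (-1.65), Zfp219 (-1.60), Zfp566 (-1.58) and Zfp961 (-1.06). Among them Zfp219, a partner of Sox9 in cartilage, had 9.67 and 13.8 FPKM in XEN-type lines, against 36.7 and 37.3 FPKM in ES-type lines.

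Fibroblast markers differed between the lines, and their part in the other differences was not tested. The 12 lower members differed between Sox17-XEN, where fibroblast markers summed to 834 FPKM, and wild-type XEN, where they summed to 41.1 FPKM, by -0.80 to 1.18, with a median of -0.08. Zfp296 was the only one of the 12 past 1 log2 unit there. The call favours members whose lines of 1 class lie close together. Small differences between the XEN-type lines were thus partly set by the selection and say nothing about fibroblasts.

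The higher members were led by Zfp9 (ENSMUSG00000072623, chromosome 6), a KRAB gene with 16.9 and 14.6 FPKM in Sox17-XEN and wild-type XEN, against 1.5 and 0.944 FPKM in Sox17-ESC no dox and R1 ESC. Its difference was 2.92 (SE 0.33, adjusted p = 0.0181 in limma), a ratio of 7.59 in FPKM + 1. Zfp449, on the X chromosome, had 12.4 and 9.90 FPKM in the XEN-type lines, against 1.57 and 0.865 FPKM in the ES-type lines (2.47, SE 0.35). For both genes every XEN-type value was more than 5 FPKM above every ES-type value.

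Zfp711, an X-linked gene whose human counterpart works with the histone demethylase PHF8, had 4.28 and 6.36 FPKM in Sox17-XEN and wild-type XEN, against 0.253 and 0.236 FPKM in Sox17-ESC no dox and R1 ESC (2.32, SE 0.28). Zfp395 had 36.8 and 21.7 FPKM in the XEN-type lines, against 5.84 and 3.74 FPKM in the ES-type lines (2.36, SE 0.40). Zfp282 had 12.3 FPKM in each XEN-type line, against 2.51 and 1.57 FPKM in the ES-type lines (2.15, SE 0.33). With Zfp9, Zfp449 and Zfp777, these were the 6 members still called higher with rescaled libraries.

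The 10 higher members that lost the call with rescaled libraries had adjusted p-values between 0.052 and 0.093 there in limma. They were Zfp800, Zfp948, Zfp768, Zfp358, Zfp688, Zfp410, Zfp869, Zfp956, Zfp637 and Zfp91. Zfp410, which activates transcription of the remodeller gene Chd4 in erythroid cells, had 23.8 and 23.6 FPKM in Sox17-XEN and wild-type XEN, against 9.03 and 7.49 FPKM in Sox17-ESC no dox and R1 ESC (1.42, SE 0.24). Chd4 itself had 86.6 and 84.3 FPKM in the XEN-type lines, against 111 and 54.9 FPKM in the ES-type lines, which overlap (0.13, adjusted p = 0.832 in limma). Zfp91, a ubiquitin ligase, had 28.6 and 31.9 FPKM in the XEN-type lines, against 13.9 and 13.8 FPKM in the ES-type lines (1.07, SE 0.20).

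Large differences did not always pass. Zfp871 (2.03, SE 0.69, adjusted p = 0.108 in limma) had 19.2 and 13.6 FPKM in Sox17-XEN and wild-type XEN, against 6.68 and 1.32 FPKM in Sox17-ESC no dox and R1 ESC. Zfp354c (1.83, SE 0.60, adjusted p = 0.103 in limma) had 28.4 and 13.1 FPKM in the XEN-type lines, against 7.51 and 2.87 FPKM in the ES-type lines. Zfp936 (-2.29, SE 0.75, adjusted p = 0.103 in limma) had 3.08 and 0.0721 FPKM in the XEN-type lines, against 10.9 and 7.76 FPKM in the ES-type lines. In these 3 the classes did not overlap, but lines of 1 class lay far apart.

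Taken pair by pair, 136 members were positive in both pairs of lines, 37 negative in both and 39 opposite, or 64.2%, 17.5% and 18.4% of 212, beside 53.0%, 26.8% and 18.7% of all rows of the same level rule. With rescaled libraries the members' counts were 92, 71 and 49, or 43.4%, 33.5% and 23.1%, beside 38.6%, 39.2% and 20.7% of those rows. Sox17-XEN minus Sox17-ESC no dox was at least 1 for 48 members and at most -1 for 22, or 22.4% and 10.3% of the members, beside 24.7% and 14.4% of all rows of the same level rule. Wild-type XEN minus R1 ESC was at least 1 for 50 and at most -1 for 24, or 23.6% and 11.3%, beside 30.9% and 14.7%. With rescaled libraries the counts past 1 log2 unit turned to 23 and 31 in the Sox17 line and to 21 and 32 in the wild-type pair. No test exists for a pair of single libraries.

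**Figure D2:**
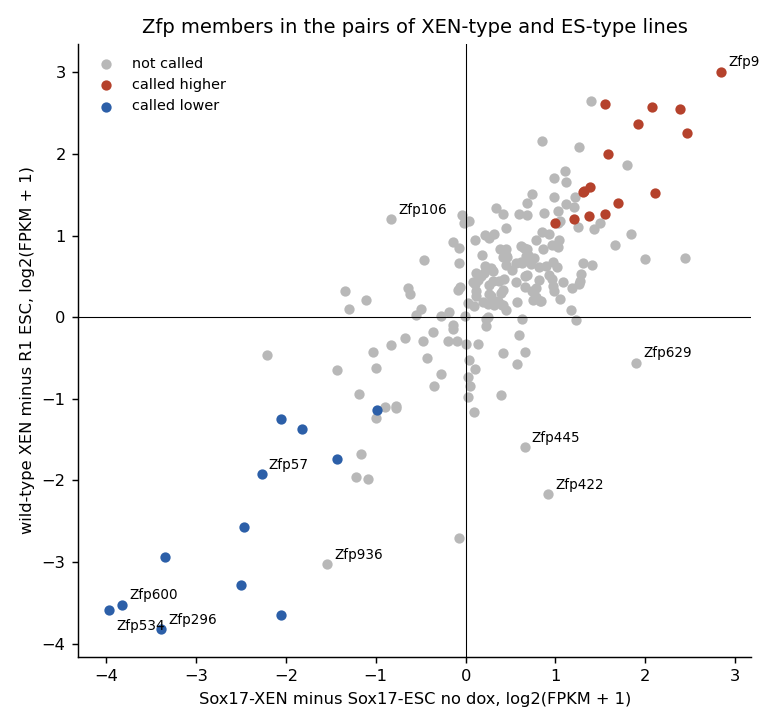
Difference of each of 212 members in log2(FPKM + 1), with Sox17-XEN minus Sox17-ESC no dox across and wild-type XEN minus R1 ESC upward; red and blue points are the 16 higher and 12 lower calls. Members in the upper left and lower right corners, such as Zfp422, Zfp445, Zfp629 and Zfp106, differ in opposite directions in the pairs.

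The XEN-type lines differed from each other in a few members. Sox17-XEN minus wild-type XEN was at least 1 for 21 members (9.86%) and at most -1 for 2 (0.939%), beside 9.45% and 7.45% of all rows of the same level rule. Zfp445, a KRAB protein that acts with Zfp57 in imprint maintenance, had 22.5 FPKM in Sox17-XEN, against 1.79 FPKM in wild-type XEN, and the other 7 libraries ran from 7.4 to 17.0 FPKM. Zfp422 had 12 FPKM in Sox17-XEN, against 0.733 FPKM in wild-type XEN, and at least 5.46 FPKM elsewhere. Wild-type XEN was the lowest of the 9 libraries for both.

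Zfp105, the next member beside Zfp445 on chromosome 9, had 5.83 FPKM in Sox17-XEN, against 0.489 FPKM in wild-type XEN, and 3.19 to 9.18 FPKM elsewhere. It was named after its values were seen. Zfp629 had 7.35 FPKM in Sox17-XEN, against 0.355 FPKM in wild-type XEN. Here Sox17-XEN was the library that stood above all others, since the remaining libraries reached at most 1.63 FPKM. The 2 members lower in Sox17-XEN were Zfp185, with 0.511 against 3.86 FPKM in wild-type XEN, and Zfp238, with 4.65 against 10.8 FPKM. Zfp238 (Zbtb18 in GENCODE) is a transcriptional repressor with a role in neural development.

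The ES-type lines without dox were closer to each other. Sox17-ESC no dox minus R1 ESC was at least 1 for 7 members (3.3%) and at most -1 for 1 (0.472%), beside 4.07% and 1.95% of all rows of the same level rule. Zfp106 had 117 FPKM in Sox17-ESC no dox, against 38.4 FPKM in R1 ESC, and Zfp871 6.68 against 1.32 FPKM. The median difference of the members was 0.27, beside 0.08 over all rows of the same level rule.

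During the dox course no member passed a test for a trend. Slopes on the rank of time over no dox, 7, 21, 35 and 49 h and day 6 gave 0 of 14933 rows (0%) and 0 of 208 members with an adjusted p under 0.05 in limma. The members with an unadjusted p under 0.05 were 19 with a positive and 17 with a negative slope. The smallest adjusted p of a member was 0.0801 in limma, that of Zfp534. With time in hours instead, which gives day 6 most of the weight, 57 members rose (27.4%) and 27 fell (13%), beside 28.8% and 13.6% of all rows fitted. When the series was extended to Sox17-XEN, 10 members rose and 8 fell (4.81% and 3.85%), beside 8.6% and 4.88% of all rows.

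Single steps against no dox showed few members past 1 log2 unit up to 49 h. At 7 h, 0 members were at least 1 and 2 were at most -1, or 0% and 0.948%, beside 1.27% and 2.07% of all rows of the same level rule. At 21 h the counts were 1 and 3 (0.469% and 1.41%), beside 3.01% and 2.12% of those rows. At 35 h they were 1 and 4 (0.469% and 1.88%), beside 2.85% and 2.11%. By 49 h they were 0 and 7 (0% and 3.3%), beside 3.71% and 2.27%, and at day 6 they reached 26 and 21 (12.2% and 9.86%), beside 21% and 12.7%. With rescaled libraries the day 6 counts were 12 and 25, so the balance turned to the lower side, and those of all rows of the same level rule were 1829 and 1819. These comparisons share the no dox library.

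Zfp57 was past 1 log2 unit at the first time sampled. Its level was 136 FPKM (no dox), 50.05 (7 h), 32.2 (21 h), 43.3 (35 h), 50.5 (49 h) and 45.3 (day 6). The difference from no dox was -1.43 at 7 h and -2.05 at 21 h, the lowest of the members at both times. From 7 h onward its level stayed between 32.2 and 50.5 FPKM, beside 43.4 FPKM in wild-type XEN. Zfp423, a regulator of adipocyte and cerebellar development, was the other member past -1 at 7 h (-1.40), with 13.5 FPKM (no dox), 4.49 (7 h), 11.7 (21 h), 8.99 (35 h), 4.94 (49 h) and 6.45 (day 6). The levels of both genes moved up and down between 7 h and day 6.

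Zfp534 and Zfp600 had a smaller value at each step from 21 h on. Zfp534 had 15.4 FPKM (no dox), 12.1 (7 h), 7.27 (21 h), 6.43 (35 h), 4.64 (49 h) and 1.71 (day 6). Zfp600 had 14.2 FPKM (no dox), 14.4 (7 h), 8.30 (21 h), 6.75 (35 h), 5.39 (49 h) and 1.77 (day 6). The 2 genes had similar levels at each step, and neither slope passed the adjusted threshold.

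Zfp428 had 33.3 FPKM (no dox), 19.6 (7 h), 11.9 (21 h), 12.1 (35 h), 12.7 (49 h) and 3.31 (day 6). Its day 6 difference of -2.99 was the lowest of the members. Zfp640 had 9.14 FPKM without dox, 6.43 to 10.1 FPKM between 7 and 49 h, and 0.313 FPKM at day 6. Zfp710 instead had 31.2 FPKM (no dox), 48.1 (7 h), 53.2 (21 h), 49.0 (35 h), 43.0 (49 h) and 12.5 (day 6). Its level was thus above no dox at every time up to 49 h and below it at day 6.

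On the other side, Zfp948, a KRAB gene on chromosome 17, had 4.28 FPKM without dox, 4.00 to 6.15 FPKM between 7 and 49 h and 29.5 FPKM at day 6, a difference of 2.53. Zfp395 had 5.84 FPKM without dox, 5.36 to 6.96 FPKM between 7 and 49 h and 28.5 FPKM at day 6 (2.11). Zfp9 had 1.5 FPKM (no dox), 0.993 (7 h), 1.17 (21 h), 1.64 (35 h), 2.18 (49 h) and 7.29 (day 6) (1.73). Zfp800 had 2.05 FPKM (no dox), 1.88 (7 h), 2.83 (21 h), 3.52 (35 h), 3.74 (49 h) and 6.60 (day 6) (1.32). For Zfp948 and Zfp395 most of the difference lay between 49 h and day 6.

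At day 6 both groups of called members had gone part of the way to Sox17-XEN. Of the 12 lower members, 11 were at most -1 at day 6, and of the 16 higher members 6 were at least 1. The lower members had the larger differences, with a median of -2.37 in Sox17-XEN minus no dox, against 1.57 for the higher members. A fixed threshold of 1 thus favours the lower group. The same counts were not made over all called rows, so they are not a trait of Zfp genes. As a share of the Sox17-XEN minus no dox difference, the median at day 6 was 68.1% for the lower and 56.5% for the higher members, beside 19.6% and 7.34% at 49 h. This difference between the groups was not tested, and both use the no dox library that also entered the calls. Zfp711 had no part of it (0.252 FPKM at day 6, against 0.253 FPKM without dox), and Zfp961 was at 28.9 FPKM at day 6, against 22.3 FPKM without dox. Zfp185 and Zfp187 (Zscan26 in GENCODE) had their highest level of the 9 libraries at day 6, with 12.8 and 39.97 FPKM, against 2.73 and 11.4 FPKM without dox.

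**Figure D3:**
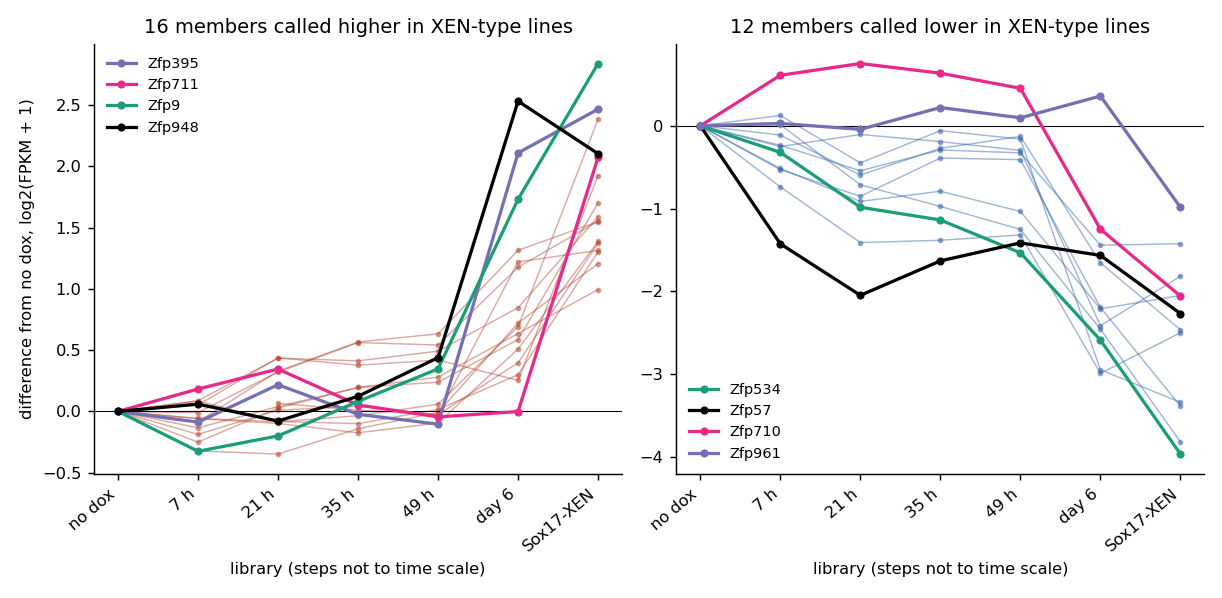
Difference from the no dox library in log2(FPKM + 1) at each dox time and in Sox17-XEN, 1 line per member, for the 16 higher (left) and 12 lower (right) members, with steps not to time scale. Zfp57 is at -1.43 at 7 h, the higher members lie between -0.35 and 0.63 from 7 to 49 h, and Zfp710 and Zfp961 lie above no dox at 49 h and below it in Sox17-XEN.

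By role, the lists are short, and their counts stand beside the 11.1% higher and 8.08% lower of all rows fitted and their median of 0.21. The KRAB genes with a studied function did not move together. Of 8 genes, Zfp57 and Zfp819 were lower and the other 6 were not called, with a median of -0.27, and 7 of the 8 are members. Zfp809, which silences murine leukaemia proviruses, had 13.2 and 13.6 FPKM in Sox17-XEN and wild-type XEN, against 12.2 and 10.01 FPKM in Sox17-ESC no dox and R1 ESC. Zfp568, a repressor of a placental Igf2 promoter, had 24.9 and 19.7 FPKM in the XEN-type lines, against 26.1 and 14.9 FPKM in the ES-type lines. Zfp932, a repressor of endogenous retroviruses, had 14.2 and 8.58 FPKM in the XEN-type lines, against 13.1 and 13.9 FPKM in the ES-type lines. In all 3 the classes overlapped or differed by under 0.3 log2 units.

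Among 8 genes of pluripotency and the early embryo, Zfp296 was lower and 6 fitted members were not called, with a median of 0.39 over 7 fitted genes. Zfp281, which regulates Nanog, had 11.3 and 13.9 FPKM in Sox17-XEN and wild-type XEN, against 24.3 and 19.1 FPKM in Sox17-ESC no dox and R1 ESC (-0.73, adjusted p = 0.116 in limma). Zfp462, a heterochromatin factor, had 21.6 and 18.6 FPKM in the XEN-type lines, against 23.9 and 9.35 FPKM in the ES-type lines. Zfp706, which restrains Klf4 in ESC, had 27.8 and 48.4 FPKM in the XEN-type lines, against 29.3 and 26.3 FPKM in the ES-type lines. Zfp352 stayed under 1 FPKM and is not a member.

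The mRNA decay genes Zfp36, Zfp36l1 and Zfp36l2 were not called. Zfp36 had 20.9 and 9.23 FPKM in Sox17-XEN and wild-type XEN, against 10.1 and 7.2 FPKM in Sox17-ESC no dox and R1 ESC. Zfp36l1 had 42.1 FPKM and Zfp36l2 43.4 FPKM at day 6, their highest library, against 32.4 and 27.0 FPKM without dox. Of the developmental list, Zfp219 was lower and 12 other fitted genes were not called, with a median of 0.19. Zfp148, which binds GC-rich promoters, came closest among those with a positive difference, with 20.6 and 20.2 FPKM in the XEN-type lines, against 8 and 3.99 FPKM in the ES-type lines (1.67, adjusted p = 0.0528 in limma).

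Of the 9 listed genes of RNA, protein and cell division that have a row, Zfp91 was higher and 8 were not called, with a median of 0.37. Zfp598, a ubiquitin ligase for collided ribosomes, had 40.6 and 39.7 FPKM in Sox17-XEN and wild-type XEN, against 41.0 and 39.2 FPKM in Sox17-ESC no dox and R1 ESC. Across all 9 libraries it ran from 33.1 to 41.0 FPKM. Zfp207 had 69.1 and 90.9 FPKM in the XEN-type lines, against 98.2 and 84.9 FPKM in the ES-type lines, which overlap.

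Among the cofactors that KRAB proteins use, the share called lower was close to that of other rows, but none was called higher and the median was negative. Of 23 fitted genes of the KRAB corepressor and heterochromatin list, 2 were lower (8.70%) and 0 higher. All 23 met the level rule of the members. Over rows of that level rule 7.21% were lower and 13.8% higher, and over all rows fitted 8.08% and 11.1%. The median of the list was -0.35, beside 0.37 over rows of the same level rule and 0.21 over all rows fitted. A further 2 genes had an adjusted p under 0.05 in limma with a difference short of -1 (Hdac1 -0.99, Daxx -0.92). Trim28, the corepressor itself, had 204 and 184 FPKM in Sox17-XEN and wild-type XEN, against 615 and 669 FPKM in Sox17-ESC no dox and R1 ESC (-1.72, adjusted p = 0.0242 in limma). Dnmt3l, a cofactor of the de novo DNA methyltransferases, had 0.642 and 2.05 FPKM in the XEN-type lines, against 155 and 176 FPKM in the ES-type lines, and 252 FPKM at day 6. The histone methyltransferase gene Setdb1 had 22.4 and 25.8 FPKM in the XEN-type lines, against 27.5 and 23.6 FPKM in the ES-type lines.

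By chromosomal position, 88 members lay in 17 clusters with 3 or more members, where Zfp rows of any level were chained by at most 500 kb between starts. The median difference between XEN-type and ES-type lines was positive in 14 clusters and negative in 3. With rescaled libraries, clusters on chromosome 9 (Zfp653 to Zfp810, -0.05) and chromosome 7 (Zfp180 to Zfp526, -0.03) also became negative. The chromosome 6 cluster (47769264 to 48573226 in mm9) had the largest positive median, 1.31, and 0.95 with rescaled libraries. Of its 5 members, Zfp282, Zfp777 and Zfp956 were higher, and Zfp212 (0.99) and Zfp746 (0.77) were not called.

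Within that cluster, 4 of the 5 members had nearly the same level in both XEN-type lines. Zfp777 had 31.4 and 30.4 FPKM in Sox17-XEN and wild-type XEN, against 9.78 and 6.82 FPKM in Sox17-ESC no dox and R1 ESC. Zfp212 had 14.8 and 14.0 FPKM in the XEN-type lines, against 6.70 and 6.77 FPKM in the ES-type lines. Zfp746, the exception, had 13.8 and 6.81 FPKM in the XEN-type lines, against 5.52 and 5.07 FPKM in the ES-type lines. Chromosome 6 as a whole held 12 members, of which 6 were higher and 0 lower, with a median of 1.26. Over all chromosomes, 13.8% of rows of the same level rule were called higher and 7.21% lower, with a median of 0.37. Other genes of chromosome 6 were not examined, and Zfp956 lost its call with rescaled libraries. At day 6 the cluster had a median of 0.25, and Zfp777 (0.85) was its largest difference from no dox.

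The lowest medians were those of clusters on chromosome 13 (66771704 to 67931922, -1.51) and chromosome 7 (50442539 to 50873655, -1.11), with 4 members each. On chromosome 13, Zfp640 and Zfp459 were lower, while Zfp87 (0.73) and Zfp738 (-0.51) were not called. This stretch holds 22 Zfp rows, of which 18 did not reach 5 FPKM. On chromosome 7, Zfp819 was lower and Zfp936 (-2.29), in the same cluster, was not called, and the other 2 members had differences of 0.42 or less in size. The clusters with most members were 2 on chromosome 17, with medians of 0.50 over 11 members and 0.59 over 10 and 1 higher call (Zfp948) between them, and 1 on chromosome 7 from Zfp84 to Zfp146, with a median of 0.40 over 10 members and 1 lower call (Zfp566). Members of a cluster are related genes and are not replicates.

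**Figure D4:**
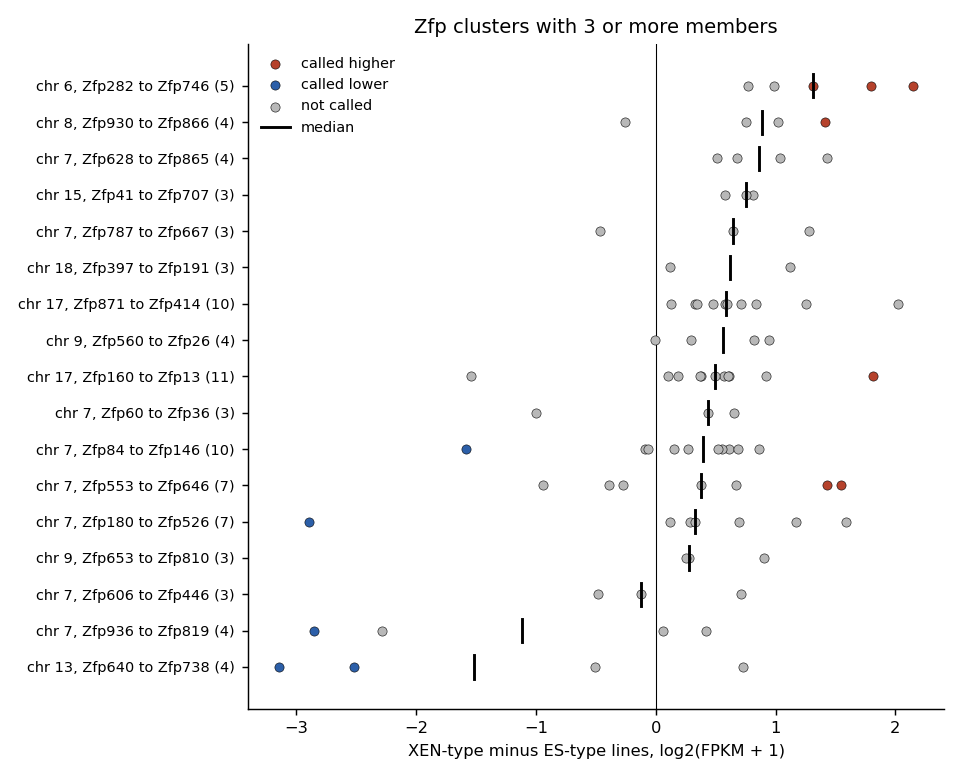
Difference between XEN-type and ES-type lines in log2(FPKM + 1) for the members of each of 17 clusters, 1 point per member, red for higher, blue for lower and grey for not called, with the cluster median as a black bar and the number of members in brackets (Zfp191, without a value, has no point). The chromosome 6 cluster has 3 higher calls and a median of 1.31, and the clusters with Zfp640 and Zfp936 have the lowest medians.

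The coding sequences were used for features that the level rule did not involve. Of 207 members with a coding sequence in GENCODE, 74 matched a pattern for the core of the KRAB A box, and the median member had 9 C2H2 patterns. Of 160 Zfp rows with the KRAB pattern, 46.3% were members, beside 71.1% of the 187 rows with a coding sequence and without it. The median of the highest level was 4.63 FPKM over rows with the pattern and 10.1 FPKM over rows without it. KRAB members had a median of 12 C2H2 patterns, against 7 for the others. The differences between line classes were close, with a median of 0.47 for KRAB members and 0.52 for the others.

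Among the lower calls, 7 of the 11 with a coding sequence matched the KRAB pattern, and among the higher calls 6 of 16. Zfp600 had the most C2H2 patterns of the lower calls, 17, and Zfp948 the most of the higher calls, 15. The members as a whole reached 37, in Zfp142. Degenerate KRAB boxes do not match the pattern, so KRAB genes may be missed. No C2H2 pattern was found in 10 members, among them the Zfp36 family, with CCCH fingers, and Zfp259 (Zpr1 in GENCODE).

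Upstream windows of 250 bases were found in RefSeq for 165 members. Where a gene has several, the one with the most CG dinucleotides was used. The median count was 22 for 11 higher calls with a window, 10 for the 12 lower calls, 13 over all members with a window and 6 over 27025 genes of every type in the table. The ranges overlapped, from 6 to 42 for the higher and from 1 to 29 for the lower calls. At most 10 CG dinucleotides were found for 2 of the higher (18.2%) and 6 of the lower calls (50%). The share was 36.4% of members with a window and 62.0% of all genes in the table. The core motif of SOX factors, searched on both strands as ACAAT or ATTGT and the only motif searched, was present in 1 of 11 higher and 4 of 12 lower calls, beside 23.0% of members with a window and 30.9% of all genes in the table. It was not found in the 4 windows printed above.

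Related families under the same level rule were set beside the Zfp members. Of 212 Zfp members 13.2% were called in either direction, against 18.2% of 33 Zbtb genes (2 higher, 4 lower), 40% of 15 Zscan and Zkscan genes (1 higher, 5 lower), 21% of all rows of the same level rule and 19.2% of all rows fitted. These shares were not tested against each other. The median difference was 0.50 for Zfp, 0.47 for Zbtb and 0.40 for Zscan and Zkscan, beside 0.37 over all rows of the same level rule. With rescaled libraries these medians were 0.14, 0.11 and 0.04, beside 0.00 over the same rows.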

How the data were processed

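RNA of 9 mouse libraries, 1 per group, was sequenced from total RNA (Trizol, TruSeq RNA kit, per the labels). The authors deposited FPKM per gene with a lower bound, an upper bound and a status, and the build mm9, Cuffdiff, Cufflinks (2.1.2) and TopHat2 (2.0.11) are listed without roles in the submitters' processing notes; the use of strand is not given in the sources used here. The confidence bounds are deposited FPKM values of the authors. Values with a status other than OK were treated as missing. The members and gene lists were chosen with earlier results of these data known. Values were used as log2(FPKM + 1).

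XEN-type and ES-type lines, and the slope on the rank of time, were tested with limma 3.58.1 in R 4.3.3 (empirical Bayes with a mean trend, 2-sided, Benjamini-Hochberg over all rows that reached 1 FPKM). For simulated data, every gene was given the same noise, the median SD of the fitted genes (0.303 and 0.263). Both tests recovered 100% of the changed genes there, with 14 and 9 false calls. Noise that differs between genes was not simulated, so the recovery of measured genes is not known. The simulated calls used an adjusted p under 0.05 in limma without the threshold on the difference. The sizes used there were 2 and 4 for the difference between line classes, and 0.5 and 1 for the slope. Recovery at smaller sizes, such as the difference of 1 used for the calls, was not tested. Read counts are not used here, so the depth is unknown and no counting error is given. Of the members, 61 share a listed locus with another row, which makes their FPKM less certain; among the called ones these are Zfp219, Zfp534, Zfp600, Zfp777, Zfp800, Zfp91, Zfp956 and Zfp961.

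The genes named were the 10 largest differences of each sign between line classes, the 5 largest at day 6, the 3 largest at each earlier time and between XEN-type lines, the highest level, the role lists and up to 4 members per cluster; the other called members, Zfp105, Zfp212 and genes named beside a count were added after their values were seen. KRAB and C2H2 patterns (C, 2 to 4 residues, C, 12 residues, H, 3 to 5 residues, H) were searched in GENCODE M21 coding sequences, the KRAB core over 8 positions with at most 1 mismatch. Python 3.11.15, numpy 2.4.6, pandas 2.3.3, Biopython 1.88 and matplotlib 3.10.9 were used. Alternatives changed the pseudocount, the scaling, the filter, the thresholds, the moderation, the lines and times used, and the cluster gap.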

Additional observations from a re-analysis of the deposited data

Results flagged for a closer look

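Members that differed in opposite directions in the pairs of lines, by at least 0.5 log2(FPKM + 1) in each, were singled out, and the difference between the pairs was not tested because each pair is 2 single libraries. Zfp106 was at -0.83 in Sox17-XEN minus Sox17-ESC no dox and at 1.20 in wild-type XEN minus R1 ESC, where R1 ESC had the lowest level of the 9 libraries. Zfp422 was at 0.92 in the Sox17 pair and at -2.17 in the wild-type pair, and Zfp445 at 0.66 and -1.59, with wild-type XEN the lowest library for both. Zfp560 was at 0.57 in the Sox17 pair and at -0.58 in the wild-type pair. Zfp629 was at 1.90 in the Sox17 pair and at -0.56 in the wild-type pair, with Sox17-XEN above every other library.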

How the results depend on the processing

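No paired analysis was run, since each group has 1 library and the labels give no replicate numbers shared between groups. Sox17-XEN and Sox17-ESC no dox share the line 4J, while no label links wild-type XEN to R1 ESC. The limma fit did not use the shared line and treated the 4 libraries as independent. For the 67 named members with a fitted value, the side of the call was kept in 733 of the comparisons with an alternative. It was lost in 67 and gained in 4. No called member changed sign, which selection for a difference of at least 1 made likely. Leaving out 1 line at a time, all rows called ran from 0 to 1218 higher and from 0 to 1054 lower, and members from 0 to 6 higher and from 0 to 11 lower; the value 0 arose without Sox17-ESC no dox and without R1 ESC, where the members with an unadjusted p under 0.05 in limma were 22 higher and 12 lower, and 13 higher and 11 lower. A class left with 1 line is assumed to vary like the other class.

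With rescaled libraries, 921 rows were called higher, against 1653 as deposited, and 6 members. The members past 1 were then 23 in Sox17-XEN, 21 in wild-type XEN, 12 at day 6 (25 lower) and 1 at 7 h on the higher side. Without a filter 1082 rows were called higher. A threshold of 2 left 724 rows higher and 581 lower and 6 members higher. At that threshold, higher and lower members were 6 and 10 in the Sox17 pair, 10 and 10 in the wild-type pair, 2 and 9 at day 6, 1 lower at 21 h, and 0 at 7, 35 and 49 h, higher at 21 h and between the ES-type lines. A pseudocount of 5 left 560 rows lower, against 1206 with 1, and 10 members higher. With it, members past 1 were 20 higher and 9 lower in the Sox17 pair, 20 higher in the wild-type pair, 7 higher and 13 lower at day 6, 3 lower at 49 h, 0 higher and 2 lower at 35 h, 0 higher at 21 h, 1 lower at 7 h, and 2 higher and 0 lower between the ES-type lines. A pseudocount of 0.1 gave 6 lower at 21 h, 4 lower at 7 h and 17 higher between the ES-type lines. Among members at 10 FPKM or more, 0 were higher at 35 h and 0 lower between the ES-type lines. In the dox course, time in hours gave 4307 rows and 57 members that rose and 2033 rows and 27 members that fell, and Sox17-XEN as a further step gave 1282 and 10, and 727 and 8. The causes were not tested.

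The number of clusters was 13 with gaps of at most 200 kb and 18 with 1 Mb, against 17. Cluster medians that moved by more than the spread between the pairs of lines are given by their first member. With a pseudocount of 0.1 the median was -2.11 for Zfp640, -1.79 for Zfp936, -0.15 for Zfp606, 0.34 for Zfp653, 0.43 for Zfp84, 0.54 for Zfp60, 0.59 for Zfp160, 0.74 for Zfp397, 0.82 for Zfp787 and 1.53 for Zfp282. With a pseudocount of 5 the median was -0.75 for Zfp640, -0.0697 for Zfp606, 0.19 for Zfp653, 0.21 for Zfp180, 0.24 for Zfp84, 0.24 for Zfp60, 0.26 for Zfp160, 0.38 for Zfp560, 0.36 for Zfp397, 0.34 for Zfp787, 0.56 for Zfp628, 0.66 for Zfp930 and 0.81 for Zfp282. With rescaled libraries the median was -0.43 for Zfp606, -0.0533 for Zfp653, -0.0281 for Zfp180, 0.00154 for Zfp553, 0.0412 for Zfp84, 0.11 for Zfp60, 0.16 for Zfp160, 0.20 for Zfp560, 0.22 for Zfp871, 0.27 for Zfp397, 0.32 for Zfp787, 0.50 for Zfp628, 0.51 for Zfp930 and 0.95 for Zfp282. With gaps of at most 200 kb the median was -0.51 for Zfp640, 0.49 for Zfp180 and 0.67 for Zfp553. With gaps of at most 1000 kb the median was 0.30 for Zfp560 and 0.69 for Zfp787. The depth is unknown, so a low level cannot be set against a detection limit.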
